A study of Homo sapiens with 8 samples.

Results

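The genes described here are the nuclear genes for subunits of the oxidative phosphorylation (OXPHOS) system. They were chosen by symbol alone among RefSeq protein-coding genes of GRCh38.p14 (hg38): NDUFA, NDUFB, NDUFC, NDUFS and NDUFV genes for complex I, SDHA to SDHD for complex II, UQCR genes for complex III, COX5 to COX8 genes for complex IV and ATP5F, ATP5M and ATP5P genes for complex V. The rule took 83 of 20037 protein-coding genes, with 37 in complex I, 4 in complex II, 9 in complex III, 14 in complex IV and 19 in complex V. They lie on 22 chromosomes, and 2 of them, NDUFC2-KCTD14 and ATP5MF-PTCD1, are readthrough genes that share sequence with a neighbour. The cells were HepG2, a human hepatoblastoma line, transfected with an siRNA against ANP32B (siANP32B) or a non-targeting siRNA (siControl) and taken 3 days later. Chromatin that carries the histone variant macroH2A1 was mapped in both by CUT&RUN, in which a nuclease tethered by an antibody cuts out the chromatin around its target for sequencing. The study asks how ANP32B, a histone chaperone, affects the entry of macroH2A into chromatin. Each group has 2 anti-macroH2A1 libraries, and the labels name no allele or agent other than the siRNA. The level of ANP32B after transfection was not analysed here.

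OXPHOS takes place in the inner mitochondrial membrane. Complex I oxidises NADH and complex II oxidises succinate, complex III passes the electrons to cytochrome c, complex IV hands them to oxygen, and complex V uses the proton gradient built by complexes I, III and IV to make ATP. Most subunits are encoded in the nucleus, at genes that are active in nearly every cell type, and the liver is rich in mitochondria. MacroH2A1 replaces H2A in some nucleosomes and carries a macrodomain. It is known mostly from broad stretches of chromatin with little transcription, though it also occurs at some active genes.

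For each library the authors deposited a list of broad enriched domains with a score for each. The siANP32B lists held 7530 and 7404 domains over 564 and 559 Mb, and the siControl lists held 8623 and 8116 domains over 519 and 467 Mb, so siANP32B domains were fewer and covered more sequence. The depth of the libraries is unknown, and the reach of called domains can depend on depth. The labels number the replicates without naming separate cultures, so the spread between libraries may be technical. The smallest p of an exact permutation test with 2 libraries in each group is 0.333. Domains do not measure expression and cannot check the cell type. For context, the hepatocyte genes ALB, AFP and TTR were touched by a domain in all 4 libraries. APOA1 was touched in all but siANP32B replicate 2, where it lay 4.75 kb from a domain.

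Below, a gene is touched when at least 1 bin of 1 kb of its body lies in a domain, and covered when at least 50% of its bins do. OXPHOS subunit genes lay largely outside macroH2A1 domains in both groups. Of the 83 genes, 22 and 17 were touched in the siANP32B libraries (26.5% and 20.5%), against 17 and 13 in the siControl libraries (20.5% and 15.7%). Among all protein-coding genes 40.9% and 36.4% were touched in the siANP32B libraries and 38.3% and 31.5% in the siControl libraries. The share of OXPHOS genes was thus the lower one in each of the 4 libraries.

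Fewer genes were covered by this measure. The siANP32B libraries covered 6 and 4 OXPHOS genes (7.23% and 4.82%), against 3 and 3 in the siControl libraries (3.61% each). Bins at the ends of a gene can reach past its body, and some covered genes lay exactly at the limit of 50%. These were NDUFA8 in siANP32B replicate 2, ATP5MC1 in siControl replicate 1 and COX6B2 in siControl replicate 2. Over all protein-coding genes 24.4% and 20.8% were covered in the siANP32B libraries and 20.1% and 16.7% in the siControl libraries. No OXPHOS gene was covered in all 4 libraries, where 2323 protein-coding genes were. In all, 52 of the 83 genes (62.7%) were touched in no library, against 46.9% of all protein-coding genes, and 3 (3.61%) were touched in every library, against 21.9%. Those 3 were NDUFA8, NDUFV1 and ATP5MJ.

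The gap from a gene body to the nearest domain had a median over the 83 genes of 33.1 and 36.4 kb in the siANP32B libraries and of 29.3 and 36.3 kb in the siControl libraries. Over all protein-coding genes it was 8.91 and 14.1 kb in the siANP32B libraries and 8.86 and 21.2 kb in the siControl libraries. OXPHOS genes are short, with a median body of 9936 bp against 24115 bp for all protein-coding genes, and a short body is touched less often. Among genes under 10 kb, 26.2% and 23.8% of the 42 OXPHOS genes were touched in the siANP32B libraries and 23.8% and 11.9% in the siControl libraries. All protein-coding genes of that length gave 36.6% and 30.9% in the siANP32B libraries and 32.5% and 25.2% in the siControl libraries. From 10 to 50 kb the 35 OXPHOS genes gave 25.7% and 17.1% with siANP32B and 14.3% and 17.1% with siControl, against 40.3% and 34.7% with siANP32B and 37.2% and 30.1% with siControl for all. The lower share of OXPHOS genes was thus present within both length classes in every library. OXPHOS genes had a median of 14 genes within 500 kb, against 12 for all. Whether gene density bears on the share touched was not tested.

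**Figure D1:**
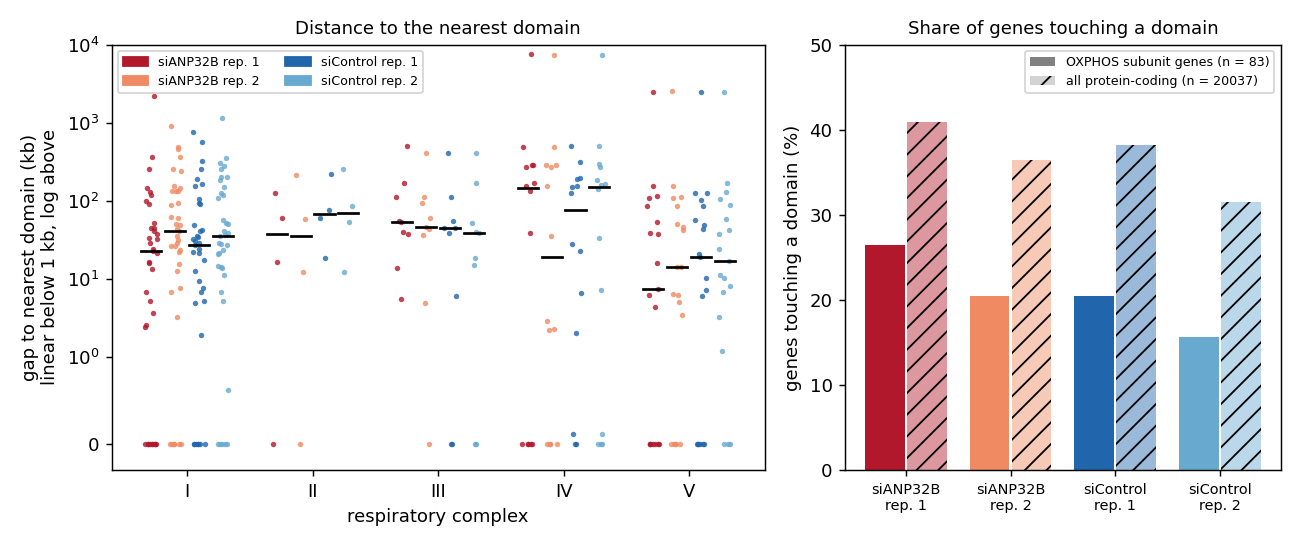
Left, gap in kb from each OXPHOS subunit gene to the nearest macroH2A1 domain by respiratory complex (points are genes, black lines medians, axis linear below 1 kb and logarithmic above). Right, percent of genes touched by a domain in each library, where the plain bar of the OXPHOS genes is lower than the hatched bar of all 20037 protein-coding genes in all 4 libraries.

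With 2 libraries in each group, no difference between siANP32B and siControl in these measures could pass a threshold of 0.05. OXPHOS genes touched averaged 19.5 ± 3.54 in siANP32B libraries and 15 ± 2.83 in siControl libraries (SD, n = 2 each), a difference of 4.5 (two-sided exact permutation p = 0.667), with siANP32B replicate 2 and siControl replicate 1 at the same count of 17. The difference was 1 without chromosomes 2, 6, 14, 16, 17 and 20, which are gained in whole or part in HepG2, and 2 without siANP32B replicate 1. Genes covered averaged 5 ± 1.41 with siANP32B and 3 ± 0 with siControl, a difference of 2 (exact permutation p = 0.333, the smallest possible). The groups did not overlap in this count, at 6 and 4 with siANP32B against 3 and 3 with siControl. Nor did they overlap over all protein-coding genes, with 24.4% and 20.8% covered with siANP32B against 20.1% and 16.7% with siControl. With 100% of bins as the minimum, the difference in OXPHOS genes covered was 1.5 (exact permutation p = 0.667). The difference was -0.5 under either limit on the domain score (the 5000 best-scored domains of each library, or a common score minimum) and 0 with gene bodies widened by 10 kb.

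The length of gene body in domains was 115.0 and 60.6 kb in the siANP32B libraries, against 56.4 and 56.1 kb in the siControl libraries, out of 1526 kb. The averages were 87.8 ± 38.5 kb with siANP32B and 56.3 ± 0.217 kb with siControl (SD, n = 2 each), and the difference of 31.5 kb had an exact permutation p of 0.333. It rests mostly on siANP32B replicate 1, since without that library it is 4.31 kb. Without the gained chromosomes it is 13.25 kb, and the difference in genes covered is 0.5. As a share, 7.54% and 3.97% of OXPHOS gene length lay in domains with siANP32B and 3.70% and 3.68% with siControl, against 15.9% and 14.9% with siANP32B and 13.4% and 11.7% with siControl over all protein-coding genes. Both sets were higher with siANP32B, as was the sequence in domains over the genome. With only domains above a common score the sign turned: the difference in covered length was -27.3 kb and that in genes touched -3.5. The common minimum was 81.1, and median domain scores were 70.1 and 67.5 in the siANP32B lists and 88.9 and 97.7 in the siControl lists. This minimum thus kept a smaller part of the siANP32B lists over the whole genome. Its part in the turned sign was not tested. The median gap differed by 1.90 kb (exact permutation p = 0.667), and its groups overlap. With the common score minimum it differed by 80.7 kb, at 145.8 kb with siANP32B and 65.2 kb with siControl (exact permutation p = 0.333).

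**Figure D2:**
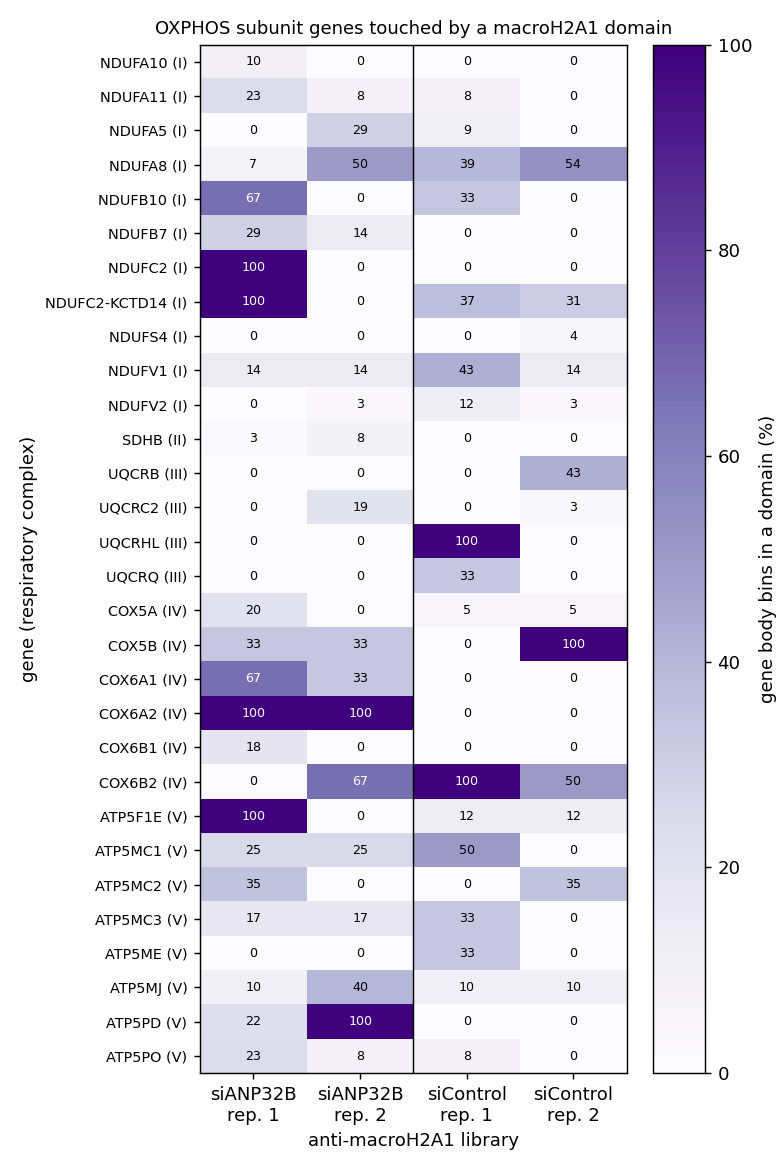
Percent of the 1 kb bins of the gene body in a domain, for 30 of the 31 OXPHOS subunit genes touched in at least 1 library, by respiratory complex, with siANP32B libraries left of the line and siControl libraries right of it. Most cells hold low values or 0, and no gene is dark in all 4 columns.

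Complex I, the NADH dehydrogenase, had 9 and 6 of its 37 genes touched in siANP32B libraries and 7 and 5 in siControl libraries, and 25 touched in none. NDUFA8, an accessory subunit, was one of the 2 touched throughout, with 7.14% and 50% of its bins in domains with siANP32B and 39.3% and 53.6% with siControl. Its value in siANP32B replicate 1 was the low one, and the groups overlap. NDUFV1, a core subunit that holds the FMN group and the NADH site, had 14.3% in both siANP32B libraries, against 42.9% and 14.3% in the siControl libraries. NDUFV2, the core subunit beside it, was touched in siANP32B replicate 2 (3.03%) and in both siControl libraries (12.1% and 3.03%).

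NDUFA11, of the membrane arm, had 23.1% and 7.69% with siANP32B and 7.69% and 0 with siControl. NDUFB7, a subunit of the membrane arm, had 28.6% and 14.3% with siANP32B and 0 in both siControl libraries, so its groups do not overlap. In bases the overlap was small, at 1.07 and 0.066 kb in the siANP32B libraries, and in siControl replicate 1 the nearest domain was 1.93 kb away. NDUFB10, also of the membrane arm, had 66.7% in siANP32B replicate 1 and 33.3% in siControl replicate 1 and 0 in the second library of each group. NDUFC2 was wholly in a domain in siANP32B replicate 1 and in none of the other 3 libraries. That domain was 97 kb long with a score at the 2.44th percentile of its list, and it also held the readthrough gene NDUFC2-KCTD14, which had 100% and 0 with siANP32B and 36.9% and 30.8% with siControl. NDUFA10, an accessory subunit, was touched in siANP32B replicate 1 only (9.70%), while NDUFS4, a subunit of the matrix arm, was touched in siControl replicate 2 only (4.03%). NDUFA5, of the matrix arm, had 0 and 28.8% with siANP32B and 9.09% and 0 with siControl.

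Complex II, succinate dehydrogenase, had 1 gene touched. SDHB, its iron-sulfur subunit, had 2.70% and 8.11% of bins in domains with siANP32B and 0 in both siControl libraries, where the nearest domains were 61.0 and 54.0 kb away. The groups do not overlap, yet the domains entered SDHB by only 0.032 and 2.03 kb in the siANP32B libraries. SDHA, SDHC and SDHD were touched in no library.

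Complex III, the cytochrome bc1 complex, had 0 and 1 of 9 genes touched with siANP32B and 2 and 2 with siControl. UQCRC2, a core subunit, had 0 and 19.4% with siANP32B and 0 and 3.23% with siControl. UQCRB, the ubiquinone-binding subunit, was touched in siControl replicate 2 only (42.9%) and UQCRQ, a small membrane subunit, in siControl replicate 1 only (33.3%). UQCRHL, an intronless copy of the hinge gene UQCRH, lay wholly in a domain in siControl replicate 1 alone, and since it is 276 bp long, this is a single bin. UQCRH itself was 54.7 and 59.7 kb from a domain with siANP32B and 54.7 and 52.7 kb with siControl.

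Complex IV, cytochrome c oxidase, held both the OXPHOS genes covered in both libraries of a group and some of those farthest from any domain. Its 14 genes had median gaps of 145.6 and 19.3 kb with siANP32B and of 76.8 and 149.6 kb with siControl, and 5 and 4 were touched with siANP32B against 2 and 3 with siControl. COX6A2, the heart and skeletal muscle form of subunit 6A, was wholly in a domain in both siANP32B libraries and in none with siControl, where the nearest domains were 22.7 and 33.7 kb away. It was the only OXPHOS gene covered in both siANP32B libraries. The siANP32B domains over it were 410 and 260 kb long with scores at the 5.44th and 7.89th percentiles of their lists, and in both libraries they held the integrin genes ITGAD, ITGAM and ITGAX. COX6A1, the form of the same subunit used in liver and most tissues, had 66.7% and 33.3% with siANP32B and 0 with siControl. Here the siControl domains stopped 0.112 kb short of the gene in both libraries, while the siANP32B domains entered it by 1.89 and 0.888 kb. The siANP32B domains at COX6A1, at the 72.3rd and 84.4th percentiles of score, were 174 and 122 kb long and held MSI1 and PLA2G1B in both libraries.

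COX6B2, the testis form of subunit 6B, was the only OXPHOS gene covered in both siControl libraries, with 0 and 66.7% with siANP32B and 100% and 50% with siControl. COX6B1, its common form, was touched in siANP32B replicate 1 only (18.2%). COX5B, a subunit on the matrix side, had 33.3% in both siANP32B libraries, against 0 and 100% in the siControl libraries, so a siControl library lies on either side of the siANP32B values. COX5A, also on the matrix side, had 20% and 0 with siANP32B and 5% in both siControl libraries. Other tissue-restricted forms lay far from domains: the testis form COX7B2 at 495.8 and 493.8 kb with siANP32B and 503.8 and 501.8 kb with siControl, and COX8C at 168.2 and 35.6 kb with siANP32B and 150.2 and 166.2 kb with siControl. The muscle form COX7A1 lay 156.9 kb away in both siANP32B libraries and 155.9 and 158.9 kb away in the siControl libraries. Among the common partners, COX8A lay at 292.6 and 286.6 kb with siANP32B and 313.6 and 294.6 kb with siControl, and COX7A2 at 269.7 and 270.7 kb with siANP32B and 6.67 and 272.7 kb with siControl. COX7B, on chromosome X, had the largest mean gap of the 83 genes over the 4 libraries, with gaps of 7637 and 7330 kb with siANP32B and 195.6 and 7352 kb with siControl.

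Complex V, the ATP synthase, had median gaps of 7.40 and 14.2 kb with siANP32B and 19.2 and 17.03 kb with siControl over its 19 genes. Of these, 7 and 5 were touched with siANP32B and 6 and 3 with siControl. ATP5MJ, a small subunit of the membrane part, had 10% and 40% with siANP32B and 10% in both siControl libraries. ATP5PD, subunit d of the peripheral stalk, had 22.2% and 100% with siANP32B and 0 with siControl, where the gaps were 21.03 and 17.03 kb. Its siANP32B domains were 214 and 178 kb long with scores at the 16.2nd and 1.23rd percentiles, and both held MRPL58, a mitochondrial ribosomal protein gene. ATP5F1E, subunit epsilon of the F1 part, was wholly covered in siANP32B replicate 1, by a domain of 838 kb that had a score at the 0.0398th percentile, was untouched in siANP32B replicate 2 and had 12.5% in both siControl libraries.

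The genes ATP5MC1, ATP5MC2 and ATP5MC3, for subunit c of the proton-carrying ring, encode the same mature protein. ATP5MC1 had 25% in both siANP32B libraries, against 50% and 0 with siControl, and ATP5MC3 had 16.7% in both siANP32B libraries, against 33.3% and 0 with siControl. ATP5MC2 had 35.3% and 0 with siANP32B and 0 and 35.3% with siControl, so none of the 3 separated the groups. ATP5PO, the stalk subunit that confers oligomycin sensitivity, had 23.1% and 7.69% with siANP32B and 7.69% and 0 with siControl. ATP5ME, subunit e, was touched in siControl replicate 1 only (33.3%). ATP5F1A, the F1 alpha subunit, was never touched, with gaps of 6.25 kb in both siANP32B libraries and 7.25 and 8.25 kb in the siControl libraries.

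Coverage in both siANP32B libraries lay above both siControl libraries in 5 of the 83 genes (6.02%): COX6A2, COX6A1, NDUFB7, SDHB and ATP5PD. Over all protein-coding genes the same held for 8.91%, so the share of OXPHOS genes was not above that background. The reverse order occurred at 0 of the 83 genes, against 2.88% of all. These 5 genes differ in what reached them. COX6A2 in both siANP32B libraries and ATP5PD in siANP32B replicate 2 were inside long domains of low score. In siANP32B replicate 1 a domain reached the 3′ end of ATP5PD by 1.14 kb. At COX6A1, NDUFB7 and SDHB a domain edge entered the start of the gene.

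Replicates of a group often differed at single genes. Of OXPHOS genes touched in either siANP32B library, 50% were touched in both, and of those touched in either siControl library, 36.4% were touched in both. Among all protein-coding genes these shares were 64.8% with siANP32B and 61.9% with siControl. For pairs of a siANP32B and a siControl library, the shares ran from 29.6% to 41.7% for OXPHOS genes. They ran from 57.9% to 64.0% for all protein-coding genes. The siControl libraries thus shared touched OXPHOS genes no more than some pairs across the groups did.

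Where a domain did reach an OXPHOS gene, it mostly came from upstream and stopped just inside the start. The direction of transcription was known for 67 of the 83 genes, of which 26 were touched. Of 55 touches that left part of the body free, counted over the 4 libraries, 44 (80%) reached the 5′ end alone. The share was 75% and 85.7% in siANP32B libraries and 78.6% and 81.8% in siControl libraries, so it was high in every library and the groups overlap. Among all protein-coding genes it was 55.2% and 57.8% in siANP32B libraries and 57.9% and 54.0% in siControl libraries. Among protein-coding genes under 50 kb it was 63.7% over the 4 libraries. This pattern was noticed in the data, and a gene can count once in each library, so the touches are not independent.

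The domains reached a median of 0.914 kb into the OXPHOS genes they entered at the start, over 46 touches of 21 genes, and 54.3% of these touches ended within 1 kb. For all protein-coding genes the median was 5.34 kb with 24.1% within 1 kb, and for those under 50 kb it was 3.46 kb with 29.7%. The domain ends lie on a 1 kb grid, which sets the precision of single depths. At NDUFV1 the domain ended 0.065 kb inside the gene in both siANP32B libraries, against 2.07 and 0.065 kb in the siControl libraries. At ATP5MJ it ended 0.529 and 3.53 kb inside with siANP32B and 0.529 kb inside in both siControl libraries. At ATP5MC1 it ended 0.214 kb inside in both siANP32B libraries and 1.21 kb inside in siControl replicate 1. The same edge, to the bin, thus recurred in at least 2 libraries at each of these 3 genes.

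**Figure D3:**
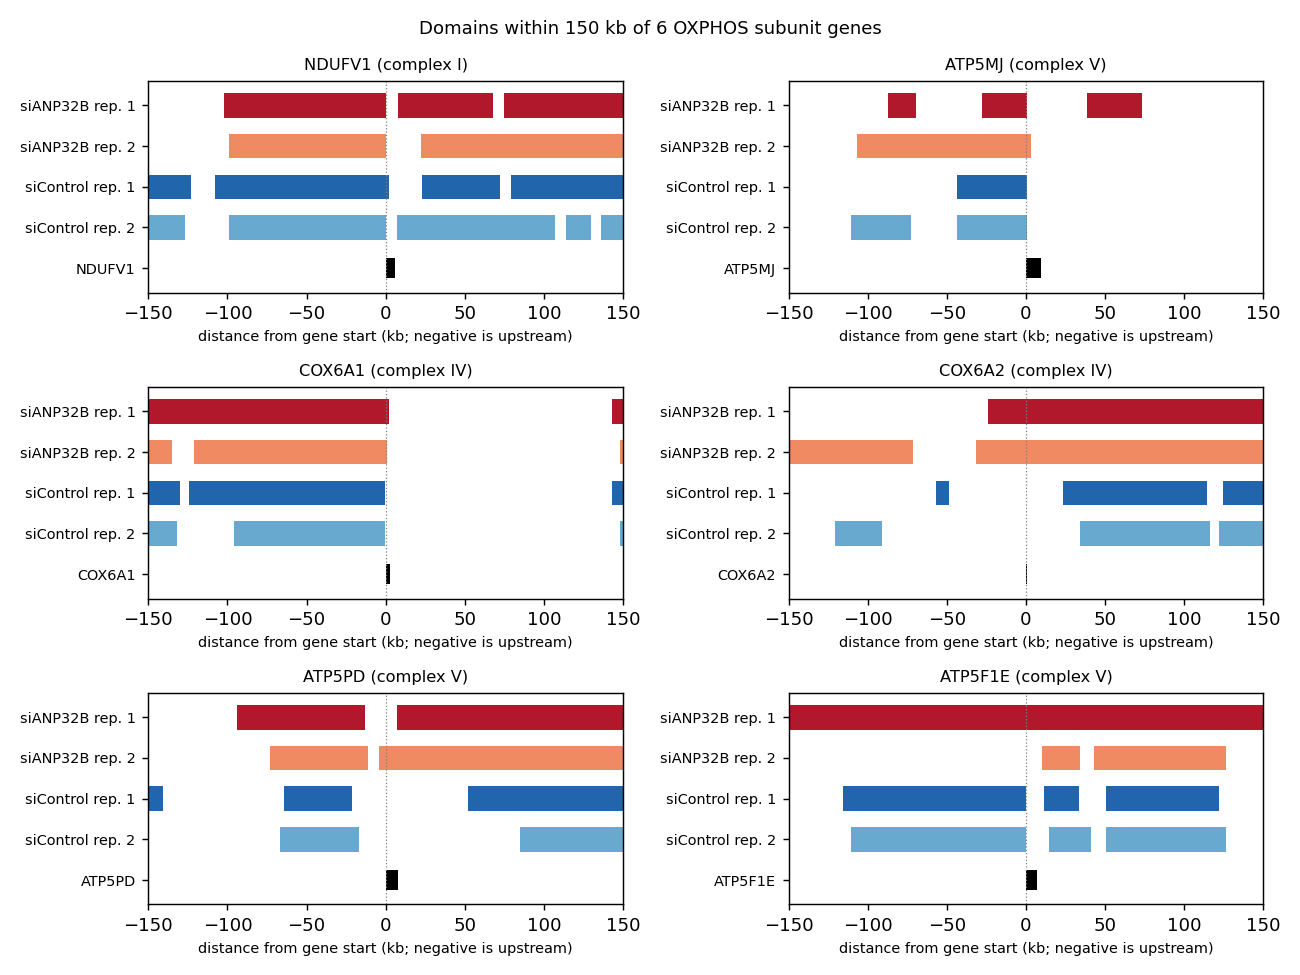
Domains of each library within 150 kb of 6 OXPHOS subunit genes, drawn along the direction of transcription with the gene as a black bar at the bottom. At NDUFV1, ATP5MJ and COX6A1 domains lie upstream and end at or near the start, while long siANP32B domains run over COX6A2 in both libraries, over ATP5PD in replicate 2 and over ATP5F1E in replicate 1. At NDUFV1 another domain begins downstream in every library. It begins 8.07 and 22.1 kb from the start with siANP32B and 23.1 and 7.07 kb with siControl.

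Counted by distance from the start, domains held 25.4% and 21.9% of OXPHOS positions 1 to 10 kb upstream in siANP32B libraries and 24.6% and 21.9% in siControl libraries. Over the 1 to 10 kb downstream they held 10.7% and 7.46% with siANP32B, against 3.28% and 4.48% with siControl. All protein-coding genes had 26.3% and 22.4% downstream with siANP32B and 21.7% and 18.1% with siControl, and their upstream values were 34.1% and 31.4% with siANP32B and 32.5% and 26.5% with siControl. Protein-coding genes under 50 kb, closer in length, had 27.9% and 23.1% downstream with siANP32B and 22.9% and 18.9% with siControl. Both siANP32B libraries were above both siControl libraries downstream of OXPHOS starts and downstream of all starts. At the lowest point, 4 to 6 kb downstream, 5.97% of OXPHOS genes were in a domain in each siANP32B library, against 0 and 1.49% in the siControl libraries.

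**Figure D4:**
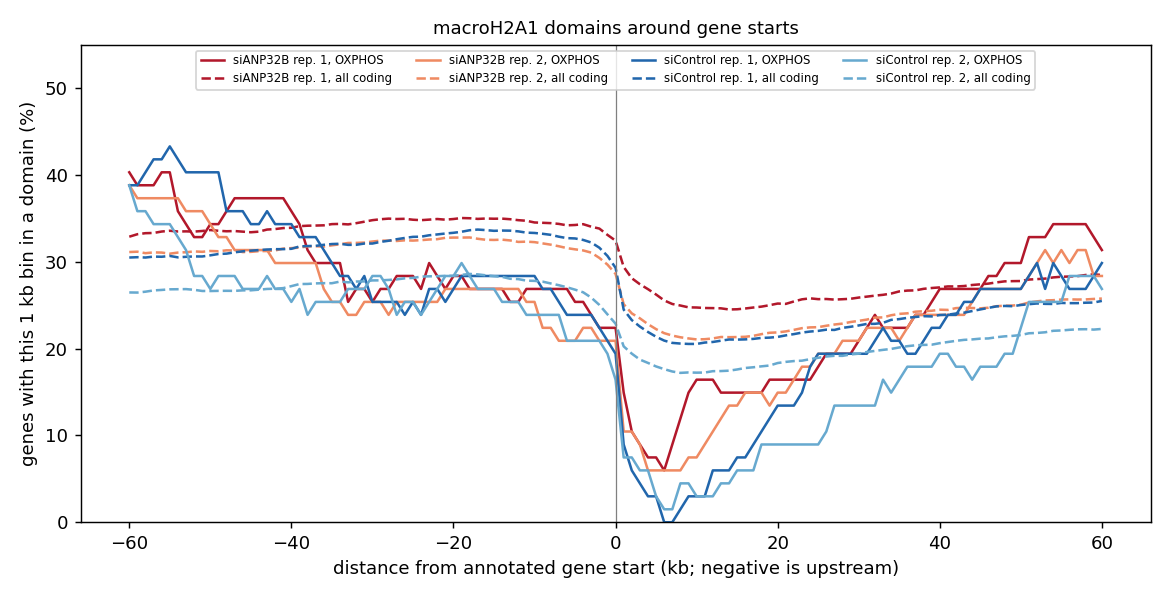
Percent of genes with a given 1 kb bin in a domain, by distance in kb from the annotated start, for the 67 OXPHOS subunit genes with known strand (solid) and all protein-coding genes (dashed) in each library. The solid lines drop at the start to between 0 and 5.97% within 6 kb downstream, and the dashed lines drop less.

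Promoters of 4 genes are shown for their place relative to domains. They are NDUFV1 and ATP5PO, whose windows lay in domains in 4 and 3 of the 4 libraries, and the COX6A pair. The gene bodies of that pair were reached by siANP32B domains only. The siControl domains at COX6A1 end inside its window, and the COX6A2 window lies wholly in siANP32B domains and in no siControl domain. Each is the RefSeq window (GRCh38.p14) from 250 bases before to 50 bases after the annotated start, 5′ to 3′ on the coding strand, with matches to the searched motifs in capitals.
NDUFV1, chr11:67606686-67606985, plus strand: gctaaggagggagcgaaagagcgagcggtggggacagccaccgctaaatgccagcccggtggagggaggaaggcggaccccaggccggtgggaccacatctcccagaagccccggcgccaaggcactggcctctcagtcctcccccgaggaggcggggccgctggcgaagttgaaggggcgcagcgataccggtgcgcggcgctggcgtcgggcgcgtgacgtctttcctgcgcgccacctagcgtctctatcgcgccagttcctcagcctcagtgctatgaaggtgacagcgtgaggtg
ATP5PO, chr21:33915755-33916054, minus strand: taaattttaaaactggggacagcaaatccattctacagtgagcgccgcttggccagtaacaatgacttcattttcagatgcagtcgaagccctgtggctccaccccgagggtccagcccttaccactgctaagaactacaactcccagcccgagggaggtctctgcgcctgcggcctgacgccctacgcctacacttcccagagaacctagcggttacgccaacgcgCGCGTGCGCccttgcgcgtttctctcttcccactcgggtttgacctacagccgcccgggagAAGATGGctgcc
COX6A1, chr12:120437863-120438162, plus strand: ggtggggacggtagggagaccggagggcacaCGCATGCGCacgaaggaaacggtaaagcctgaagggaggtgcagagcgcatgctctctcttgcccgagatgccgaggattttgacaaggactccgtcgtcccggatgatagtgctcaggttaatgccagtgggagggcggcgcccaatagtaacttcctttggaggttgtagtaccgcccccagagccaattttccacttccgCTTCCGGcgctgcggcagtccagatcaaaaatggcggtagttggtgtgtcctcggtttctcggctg
COX6A2, chr16:31428311-31428610, minus strand: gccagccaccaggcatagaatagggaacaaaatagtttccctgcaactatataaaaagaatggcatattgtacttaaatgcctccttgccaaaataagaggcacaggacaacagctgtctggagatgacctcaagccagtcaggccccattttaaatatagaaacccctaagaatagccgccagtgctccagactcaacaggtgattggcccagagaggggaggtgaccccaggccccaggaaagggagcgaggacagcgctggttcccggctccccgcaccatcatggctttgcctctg
The motifs searched on both strands were GCGCANGCG, the core of the NRF1 site, CCGGAAG, the core of the ETS site bound by GABP, AAGATGG, the core of the YY1 site, and CACGTG, the E-box. The ETS and YY1 letters can overlap over AAG. NRF1 and GABP are known activators of nuclear OXPHOS genes.

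The COX6A1 window holds an NRF1 match and an ETS match and 22 CpGs, at 0.868 of the number its base composition predicts. The COX6A2 window holds none of the 4 motifs and 5 CpGs, at 0.247 of that number. ATP5PO has an NRF1 and a YY1 match and 21 CpGs, and NDUFV1 has no match and 30 CpGs. Over the 79 OXPHOS windows in the table, from 67 genes, NRF1 letters were in 29.1%, against 9.64% of all 22199 protein-coding windows. ETS letters were in 26.6% against 12.8%, YY1 letters in 24.1% against 6.04%, and the E-box in 8.86% against 8.34%. The median CpG ratio was 0.842 for OXPHOS windows and 0.737 for all.

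With 1 window per gene, 43 of the 67 OXPHOS windows lay in a domain in no library, 21 in 1 to 3 libraries and 3 in all 4 (64.2%, 31.3% and 4.48%). Windows of all protein-coding genes gave 55.7%, 29.99% and 14.3%. NRF1 letters were in 37.2% of the 43 windows outside domains and in 19.05% of the 21 windows in domains in 1 to 3 libraries. They were in 66.7% of the 3 windows in domains in all 4, which are too few to read an order from. Among these 3 was COX6A1, with 50% of its window in domains in each siControl library. Over all protein-coding genes the shares were 12.4% in no library, 11.1% in 1 to 3 and 5.66% in all 4. ETS letters were in 27.9% of the windows outside domains and in 28.6% of those in 1 to 3 libraries. The median CpG ratio was 0.856 in the 43 and 0.839 in the 21.

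The authors' deposited table compares macroH2A1 between siANP32B and siControl over 4474 regions, and a positive log2 fold was read as higher after siANP32B. That reading comes from the domain lists: of regions called higher in the authors' deposited table, 99.4% had at least 50% of their length in domains of each siANP32B library, against 88.3% and 80.7% for the siControl libraries. Of all regions in the authors' deposited table, 58.4% were called lower and 3.82% higher at an edgeR false discovery rate (FDR) of 0.05. The FDR is deposited for the whole region, over window tests read here as those of edgeR. The header marks the fold as that of a representative window. The sources used here do not say how the libraries were scaled, and a change of scale would move every fold together. Only 2 OXPHOS genes (2.41%) overlapped a region of the authors' deposited table, against 9.25% of protein-coding genes. OXPHOS genes are shorter, and these shares were not compared within length classes. None was called: 0 of the 83 genes overlapped a lower region, against 5.61% of all, 0 a higher one, against 0.539%, and 0 a region with an unadjusted p under 0.05, against 6.5%.

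At NDUFA8 the region of the authors' deposited table (chr9:122129001-122139000) had a log2 fold of -0.27 with an edgeR FDR of 0.293. At COX6B2 the region of the authors' deposited table (chr19:55354001-55370000) had a log2 fold of -0.49 with an edgeR FDR of 0.0906. Both folds were negative and neither passed the threshold. Both genes were among the few with siControl domains over a good part of the body.

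Called regions were found beside OXPHOS genes. Within 10 kb of a gene body, 6 genes (7.23%) had a region of the authors' deposited table, against 15.3% of all protein-coding genes. Of the 83, 1 gene had a lower region (9.59% of all protein-coding genes did) and 1 a higher region (0.684% of all did). The lower one in the authors' deposited table (chr21:33917001-33927000) lies 1.20 kb upstream of ATP5PO, with a log2 fold of -0.58 and an edgeR FDR of 0.00907. The higher one in the authors' deposited table (chr18:46016001-46076000) lies 4.25 kb beyond the 3′ end of ATP5F1A, over PSTPIP2, with a log2 fold of 1.13, an edgeR FDR of 9.83e-09 and 51 of its 51 windows up. ATP5F1A itself was in no domain in any library. Within 50 kb, 25 OXPHOS genes had a region of the authors' deposited table (30.1%, as for all genes), 15 had a lower one (18.1%, against 19.4%) and 1 a higher one (1.20%, against 1.23%). The 30 regions involved had a median log2 fold of -0.52 in the authors' deposited table, against -0.54 over all 4474. At COX6A1 a region over MSI1 in the authors' deposited table, 11.1 kb upstream, had a log2 fold of -0.54 with an edgeR FDR of 0.0357, although the domain edge reached into the gene in the siANP32B libraries.

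Genes that work with the subunits were also touched in few cases. Of 54 assembly factors, 9 and 5 were touched in siANP32B libraries and 10 and 5 in siControl libraries, and PET117, an assembly factor of complex IV, was wholly covered in all 4. Of 14 enzymes of the tricarboxylic acid cycle, which feeds NADH to complex I, 2 and 2 were touched with siANP32B and 3 and 2 with siControl. IDH2, the mitochondrial NADP-dependent isocitrate dehydrogenase, was touched in all 4, at 35% and 20% with siANP32B and 5% and 40% with siControl. Of 10 regulators of nuclear mitochondrial genes, PPARGC1A and PPARGC1B were the only ones touched. PPARGC1A, the coactivator PGC-1 alpha, had 8.37% and 22.0% with siANP32B and 19.2% and 17.8% with siControl. PPARGC1B had 32.0% in both siANP32B libraries, against 2.34% and 0 with siControl, so its groups do not overlap.

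Among 7 genes for subunits or linked proteins whose symbols the rule does not take, both COX4I forms of complex IV subunit 4 met domains. COX4I1, the common form, had 22.2% and 100% with siANP32B and 0 in both siControl libraries, where the gaps were 3.93 and 2.93 kb. COX4I2, the lung form, had 0 and 100% with siANP32B and 100% in both siControl libraries. The other 5, among them CYC1 of complex III and CYCS, the gene for cytochrome c, were touched in no library. The 4 genes for the carriers that exchange ADP and ATP across the inner membrane gave 0 and 0 touched with siANP32B and 2 and 1 with siControl. SLC25A4, the heart and muscle form, had 0 with siANP32B and 12.5% in both siControl libraries, with gaps of 1.27 and 2.27 kb with siANP32B. Mitochondrial ribosomal protein genes, another set of short active genes, were touched at 27.3% and 22.1% with siANP32B and 22.1% and 14.3% with siControl (77 genes), and cytosolic ribosomal protein genes at 29.9% and 14.9% with siANP32B and 19.5% and 17.2% with siControl (87 genes). These shares lie near those of the OXPHOS genes. The reach into the gene was also short in these sets, with medians of 0.848 kb for mitochondrial ribosomal protein genes, 0.425 kb for cytosolic ones and 0.612 kb for assembly factors. The share of partial touches at the 5′ end alone was 58.1% for mitochondrial ribosomal protein genes, 60.6% for cytosolic ones and 68.4% for assembly factors.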

How the data were processed

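macroH2A1 CUT&RUN was analysed in 4 of 8 libraries (2 siANP32B, 2 siControl). The 4 IgG libraries were not analysed here. Per the submitters' processing notes, the build was hg38 and the tools were Trim Galore, Bowtie2, SAMtools, deepTools, edgeR and SICER; their versions and settings, and how libraries were scaled, are not stated there. The authors deposited a domain list for each library, on a 1 kb grid. Its score per domain, the authors' own, was used here for ranking and filters alone. The authors' deposited table gives, per the file headers, a p-value, an FDR and a fold, read as log2 by the convention of edgeR, for each of 4474 regions. Its other deposited columns, used as whole numbers, count windows, not reads. Columns with per-sample values numbered 0. Depth is unknown, so no count test was made.

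Gene spans came from RefSeq (GRCh38.p14), and strand and promoter windows from a RefSeq promoter table that matched 67 of 83 members. Coverage was counted in 1 kb bins of the gene body, with 50% as the minimum for covered, and gaps in kb from the gene body. Groups were compared by a two-sided exact permutation test over libraries (Python 3.11.15, pandas 2.3.3, numpy 2.4.6, scipy 1.17.1, matplotlib 3.10.9), and the scripts were tested on simulated data. Named genes were members touched in at least 1 library or overlapping a tested region, tissue-restricted forms with their partners, the 5 nearest untouched and 5 farthest members, and up to 4 genes of each other list; the text gives those that bear on a result. Of the touched members, 1 is not reported here by name and is left out of the heat map, but stays in the counts. The members and lists were chosen with earlier results of these data known. NDUFA4 and NDUFA4L2, on the list of tissue forms, fit the symbol rule. They were not found under those symbols among the protein-coding genes and were not analysed. Alternatives were score limits, widened gene bodies, other coverage minimums, sets without readthrough genes or without chromosomes gained in HepG2, each library left out and the replicate number as a block.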

Additional observations from a re-analysis of the deposited data

How the results depend on the processing

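Differences are siANP32B minus siControl. With only the 5000 best-scored domains of each library, the difference in genes covered was -0.5 and in covered length -21.3 kb. With a common score minimum, which keeps a smaller part of the siANP32B lists, it was -3.5 genes touched, -0.5 genes covered and -27.3 kb. With gene bodies widened by 10 kb, it was 0 genes covered. Leaving out 1 library at a time gave differences of 2 to 7 genes touched, 1 to 3 covered, 4.31 to 58.7 kb of covered length and -1.63 to 5.43 kb in the median gap, which was -1.63 kb without siControl replicate 1; the share of partial touches at the 5′ end alone stayed within 78.0% to 82.1%. It was 73.7% without the gained chromosomes. OXPHOS genes in tested regions numbered 0 where a region had to hold at least 50% of the body and 6 within 10 kb. The cause of these changes was not tested. The replicate numbers gave only 2 pairs and deviations that correlated at 0.0852 over all genes. The labels do not say what libraries of the same number share, and this correlation cannot settle it. With the replicate block the differences were again 4.5 touched, 2 covered, 31.5 kb and 1.90 kb, with an exact sign-flip p of 0.5, the smallest possible. Unknown depth limits every count here.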

Other observations

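Pseudogenes of OXPHOS subunits, 130 by the same symbol pattern, were touched at 28.5% and 26.9% in siANP32B libraries and at 26.2% and 25.4% in siControl libraries. All 16845 pseudogenes gave 24.7% and 24.5% with siANP32B and 22.6% and 20.5% with siControl. Of the 130, 22 (16.9%) were touched in all 4 libraries, against 13.96% of all pseudogenes and 3 (3.61%) of the 83 functional genes. These copies are short, with a median of 547 bp. This set was added after the data were seen.

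Among OXPHOS genes never touched, NDUFA7 and NDUFA2 of complex I had the smallest mean gap over the 4 libraries. NDUFA7 had gaps of 2.63 and 7.63 kb with siANP32B and 7.63 and 0.625 kb with siControl, and NDUFA2 had 5.28 and 3.28 kb with siANP32B and 5.28 kb in both siControl libraries. UQCRC1, a core subunit of complex III, had 14.001 and 5.001 kb with siANP32B and 6.001 and 15.001 kb with siControl. By mean gap, the farthest beside COX7B and COX7B2 were ATP5PF, NDUFA1 and NDUFB11. ATP5PF, coupling factor 6 of the ATP synthase, lay 2510 and 2527 kb from a domain with siANP32B and 2492 and 2462 kb with siControl. NDUFA1 and NDUFB11, both on chromosome X, varied widely, with NDUFA1 at 3194 and 133.3 kb with siANP32B and 769.3 and 1160 kb with siControl.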
